A study of Mus musculus with 3 samples.

Results

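The replication-dependent histone genes of 3 mouse pancreatic tumours are described here from single-cell RNA counts. They were chosen by name: every gene whose symbol begins with Hist1h, Hist2h, Hist3h or Hist4h, which gave 67 of the 31053 genes listed in the count tables. Of these, 6 encode linker histone H1, 18 encode H2A, 18 encode H2B, 12 encode H3 and 13 encode H4. On the GRCm38 assembly, 54 lie on chromosome 13, 10 on chromosome 3, 2 on chromosome 11 and 1 on chromosome 6.

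Replication-dependent histones package newly made DNA, and their mRNAs accumulate in S phase and are degraded when replication ends. These mRNAs normally end in a short conserved stem-loop in place of a poly(A) tail. The stem-loop is bound by Slbp, and processing needs the U7 small nuclear ribonucleoprotein and proteins gathered by Npat at histone locus bodies. A 3′ assay primed on poly(A) can catch them through polyadenylated forms, which some of these genes also make, or through internal runs of A. The counts below are of tagged molecules and are not scaled by gene length, and the capture of each gene was not measured.

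The donors carried Msi2-Myc together with R26-LSL-tdTomato, and the series title gives the driver as Musashi2-CreER-MycT58A. Epithelial cells marked by tdTomato, and so expressing MYC, were sorted 5 weeks after tamoxifen and placed in the pancreas of NSG mice, a host strain without mature T, B or NK cells. EpCAM-positive cells of the end-stage tumours were sequenced, 1 library per tumour, and the 3 libraries form 1 group with the same labels. ASCP, PDAC and ACC appear in that title, but no label ties a library to a subtype, so no test was made between tumours. Every tumour arose from MYC-expressing transplanted cells, and there is no normal pancreas or untransplanted control among the samples. The labels do not say whether donors or recipients were separate animals. With the tumour as a block, the p-values below measure how differences between cell groups vary over these 3 tumours only. That spread is pooled over all cell groups in a fit.

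The libraries held 9737397 to 16521484 unique molecular identifiers (UMIs, counts of tagged molecules). A barcode counted as a cell if it had at least 1000 UMIs and 500 genes, no more than 20% mitochondrial UMIs, and at least 60% of its UMIs over the 3 libraries in that library. The last condition was needed because barcodes recur across libraries: all of the 1431, 253 and 2804 cells kept in tumours 1, 2 and 3 also had 10 or more UMIs in another library. It removed 122, 258 and 28 barcodes, so tumour 2 lost 50.5% of its candidates. The epithelial label held up, since the ductal and epithelial list, with Epcam and the simple keratins, summed to 7708 to 9241 UMIs scaled to 1000000 per group (CPM). The fibroblast, endothelial, myeloid and lymphoid lists each summed to at most 11.5 CPM over all cells. Cells were assigned to an acinar gate (Ctrb1 and Clps), a ductal gate (Tff1 and Lgals4), a squamous gate (Krt5 and Krt14) or a gate of Msln, Tm4sf1 and F3. A gate needed 3 or more UMIs of its genes, 2 or more per 1000 UMIs and at least 2 times the share of these genes in free RNA. Free RNA was taken from barcodes of 10 to 100 UMIs. The acinar gate held 257, 36 and 838 cells and the ductal gate 396, 113 and 356. Acinar genes that were not used for gating, such as Cpa1 and Pnlip, summed to 11601, 8277 and 14855 CPM in the acinar gate against 498, 1008 and 1782 CPM in the ductal gate.

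The 3′ stem-loop is shown first because it is the feature that sets these mRNAs apart from other mRNAs. The pattern GGNNCTTTNNAGNNCC was searched on the transcribed strand of GENCODE M21 transcripts, and all 67 genes matched by identifier. It was found in 44 of the 67 genes, against 0.261% of 58725 other protein-coding transcripts. The annotated transcripts of the other 23 end before such a stretch or lack it. The 44 matches were 6 distinct sequences, and capitals below mark the 4-base loop. The first is shared by 26 genes of all but the H4 family, the second by 7 H4 genes, and the third by 6 genes that include Hist1h3e, Hist1h3c and Hist1h3f.
Hist1h1e, chr13:23621782-23621797, minus strand: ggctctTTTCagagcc
Hist1h4d, chr13:23581950-23581965, plus strand: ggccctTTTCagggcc
Hist1h3e, chr13:23561903-23561918, minus strand: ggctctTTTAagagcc

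A run of 8 or more A was found in 7 of the 67 genes. Hist1h2ap, the histone gene with the highest mean CPM over the 3 tumours, and its near copy Hist1h2ao are the only members in which such a run directly abuts the stem-loop. The stretch is printed because it is an A-rich site within the mRNA, and capitals mark the run of 12 A. The 7 genes with such a run had a median of 62.7 CPM over the tumours and a range of 9.39 to 299 CPM. The other 60 had a median of 9.47 CPM and a range of 0 to 129 CPM, so the ranges overlap. Hist1h2ao, with the same run, was the lowest of the 7, at 6.65, 11.0 and 10.5 CPM in tumours 1, 2 and 3. Only 6.93% of the 50-base windows of Hist1h2ap are found in no other member, so reads from the pair are hard to assign and the split between them is uncertain.
Hist1h2ap, chr13:21833029-21833056, minus strand: AAAAAAAAAAAAggctcttttcagagcc
Hist1h2ao, chr13:21810886-21810913, plus strand: AAAAAAAAAAAAggctcttttcagagcc

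The histone genes were measured at widely different levels. In cells, 64 of 67 had a UMI, 61 had 10 or more and 44 had 100 or more, of 21564 histone UMIs in all. Hist1h2ba, a testis-specific H2B gene, and Hist1h2bq and Hist2h2aa2 had none. Of the 50-base windows of Hist1h2bq and Hist2h2aa2, 1.54% and 0% are found in no other member. Reads from either gene are hard to assign, so their lack of UMIs does not show that they were silent. The 12 highest genes held 66.1% of the histone UMIs. By family, H2A held 27.4%, H1 24.6%, H2B 24.1%, H4 15.6% and H3 8.36%.

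**Figure D1:**
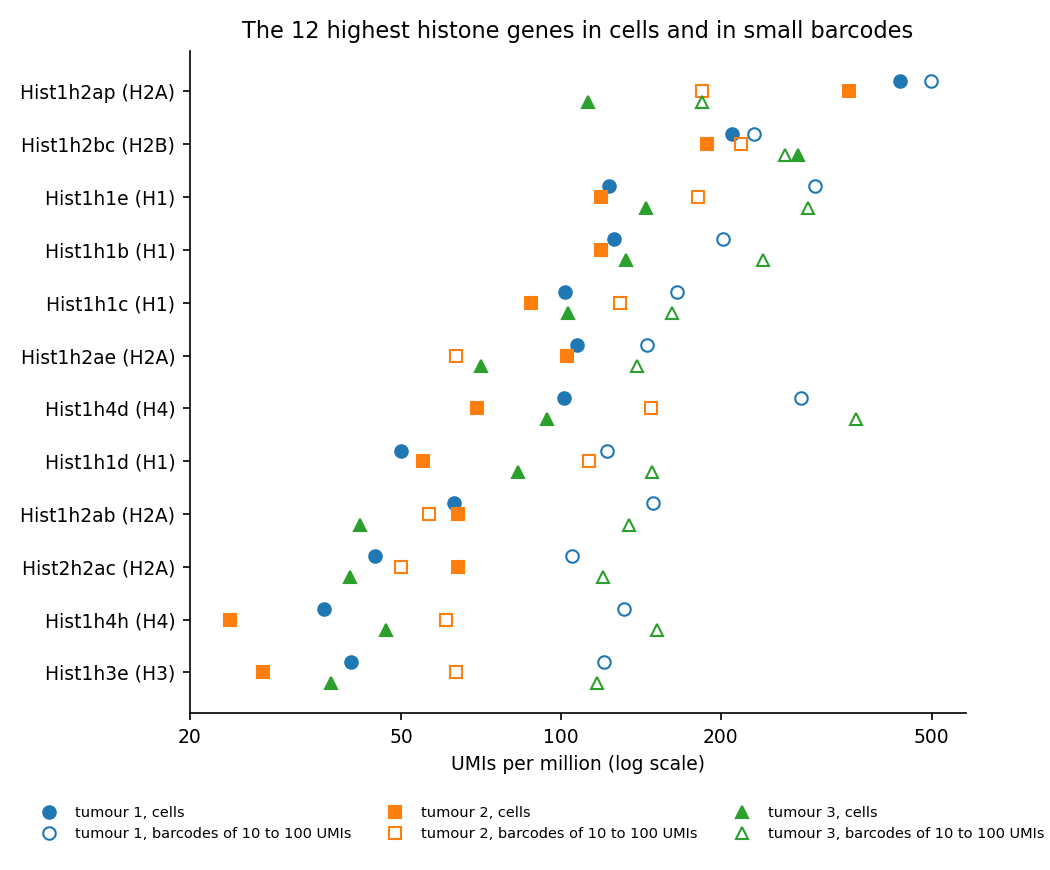
Level of the 12 highest histone genes in CPM (log axis), with 1 point per tumour. Filled points are cells and open points are barcodes of 10 to 100 UMIs, and most open points lie to the right of the filled point of the same tumour, with Hist1h2ap in tumour 2 the clearest exception.

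The linker histones, which bind DNA between nucleosomes, were led by Hist1h1e (chr13:23620629-23622558). It stood at 124, 119 and 145 CPM in tumours 1, 2 and 3. Hist1h1b (chr13:21779883-21780625) stood at 126, 119 and 132 CPM. These values lie within a narrow band, and the tumours cannot be ordered by them. Hist1h1c (chr13:23738808-23740367) stood at 102, 87.9 and 103 CPM. Hist1h1d stood at 50.0, 54.9 and 83.2 CPM, highest in tumour 3. Hist1h1t, a testis-specific H1 gene, had 2 UMIs in all.

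Among the H2A genes, core histones that pair with H2B, Hist1h2ap (chr13:21833026-21833507) had the highest mean of any member, 299 CPM ± 167 (SD, n = 3). It also varied most between tumours among the 12 highest, with 436, 350 and 113 CPM, and was the leading histone gene in tumours 1 and 2 but not in tumour 3. Hist1h2ae stood at 107, 103 and 70.6 CPM and Hist1h2ab at 63.0, 64.1 and 41.9 CPM. All 3 of these H2A genes were lowest in tumour 3, a single library. Among the H2B genes, Hist1h2bc (chr13:23684199-23692908) led with 211, 189 and 280 CPM and was the leading histone gene in tumour 3. No stem-loop lies in its annotated transcript of 1156 bases. The highest H3 gene, Hist1h3e, stood at 40.2, 27.5 and 36.9 CPM, and the highest H4 gene, Hist1h4d, at 101, 69.6 and 94.2 CPM. H3 and H4 form the inner tetramer of the nucleosome. In each tumour Hist1h3e and Hist1h4d stood below Hist1h2ap, Hist1h2bc and Hist1h1e, the highest genes of the other families by mean. Hist1h4d still ranked 7 of the 67 by mean level, above Hist1h1d and Hist1h2ab.

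Free RNA carried a larger share of histone counts than cells did. All 67 genes summed to 1989, 1679 and 1894 CPM in the cells of tumours 1, 2 and 3. In barcodes of 10 to 100 UMIs of the same libraries they summed to 4102, 2304 and 4123 CPM. The free level was above the level in cells in each tumour, and the 2 sets of values do not overlap. Over the 44 genes with 100 or more UMIs, the ratio of the mean free level to the mean level in cells had a median of 2.53 and was above 1 for 43. The exception was Hist1h2ap, with a ratio of 0.966 (499, 185 and 184 CPM free), which rests on tumour 2: its free level was above its level in cells in tumours 1 and 3, and without tumour 2 the ratio was 1.24. The next lowest ratio was that of Hist1h2bc, 1.05. Hist1h4d had a ratio of 2.98 (284, 148 and 360 CPM free). The ratios were computed for histone genes only, so no share over all genes stands beside the 43 of 44. These small barcodes also held RNA that the kept cells lacked. The erythroid list of globin genes summed to 1769, 2589 and 3569 CPM there, against at most 2.64 CPM over all cells. The endothelial list summed to 745, 1005 and 963 CPM there, against at most 5.49 CPM. Which cells the free histone RNA came from was not tested. The share of histone UMIs in cells that came from free RNA was not tested either.

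The excess sat in the smallest barcodes. In barcodes of 10 to 19 UMIs the 67 genes summed to 7698, 4996 and 8662 CPM, and in barcodes of 50 to 99 UMIs to 1701, 1186 and 1965 CPM. Hist1h2ap fell over the same sizes from 1106, 598 and 450 CPM to 134, 44.8 and 50.8 CPM. Hist1h2bc stood at 275, 215 and 383 CPM and then at 187, 219 and 202 CPM, so it did not share this pattern in tumour 2. Malat1, a nuclear noncoding RNA, went the other way, from 5652, 8441 and 9852 CPM to 34597, 41152 and 34751 CPM.

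**Figure D2:**
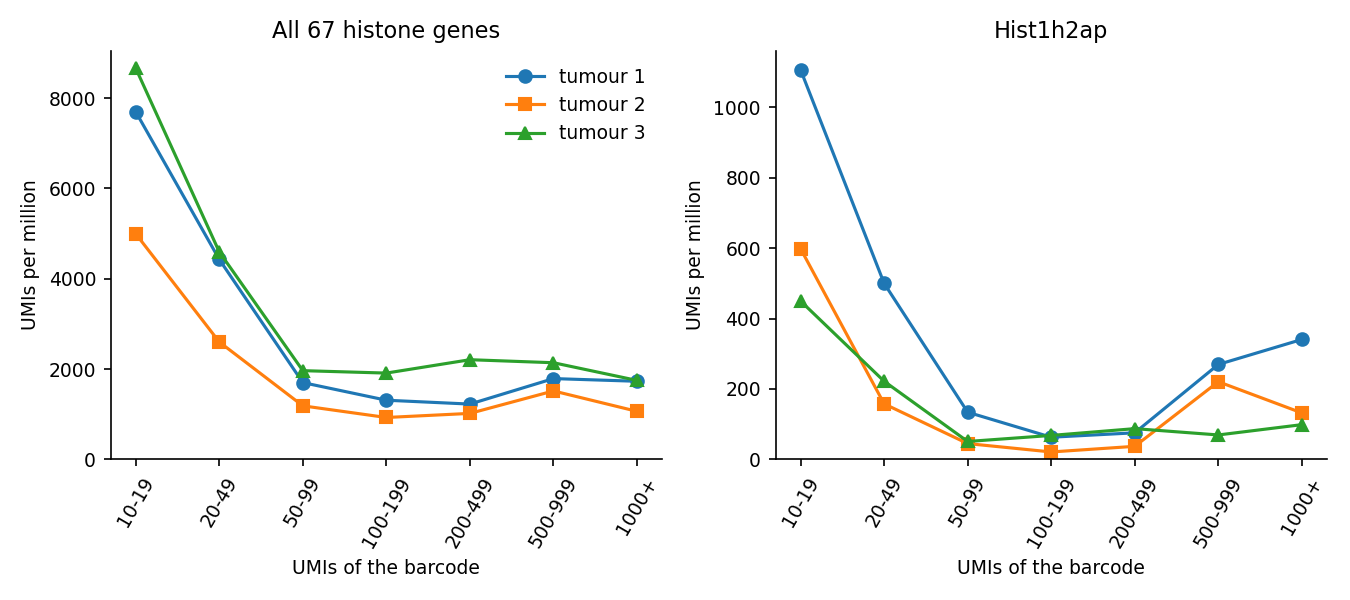
Summed level of the 67 histone genes (left) and level of Hist1h2ap (right), in CPM, against the number of UMIs of the barcode, 1 line per tumour. Both are highest in barcodes of 10 to 19 UMIs in every tumour, and in tumours 1 and 2 Hist1h2ap is higher again above 500 UMIs.

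Cells of the acinar gate held more histone RNA than cells of the ductal gate in every tumour. The 67 genes summed to 3752, 2938 and 2090 CPM in the acinar gate of tumours 1, 2 and 3 and to 1130, 1329 and 1175 CPM in the ductal gate. The lowest acinar value lay above the highest ductal value. The ratio was 3.32, 2.21 and 1.78 in the 3 tumours. Cells that passed no gate stood at 1868, 1631 and 2102 CPM, between the gates in tumours 1 and 2 and slightly above the acinar gate in tumour 3. The free RNA of tumours 1 and 3 (4102 and 4123 CPM) lay above both gates, and that of tumour 2 (2304 CPM) between them.

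Gene by gene, 14 of the 25 histone genes tested were higher in the acinar gate and 0 were lower (edgeR quasi-likelihood test on UMIs summed per tumour and gate, tumour as a block, adjusted p under 0.05). Of all 6841 genes tested, 12.9% were called higher and 14.5% lower. The other 42 histone genes did not pass the filter on low counts. Without the filter, 25 of 64 histone genes with a UMI were higher and 0 lower, against 4.95% of 17488 genes called higher and 6.75% lower. All 25 filtered genes had a log2 difference above 0, with a median of 1.18, against a median of -0.0020 over all genes tested. Not every member was higher in each tumour. Hist1h2bc was higher in the acinar gate in 2 of 3 tumours, and Hist1h4i and Hist1h2ac in 1 of 3. Of the 14, 13 were higher in 3 of 3 tumours, and for 11 the lowest acinar value lay above the highest ductal value. The exception to the first count was Hist2h2ac, higher in 2 of 3. Both counts were made within genes already called from the same sums. They were not made over all genes, so they describe the called genes and add no support. Leaving out tumour 1 left 8 genes called, leaving out tumour 2 gave 24, and leaving out tumour 3 left 12.

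**Figure D3:**
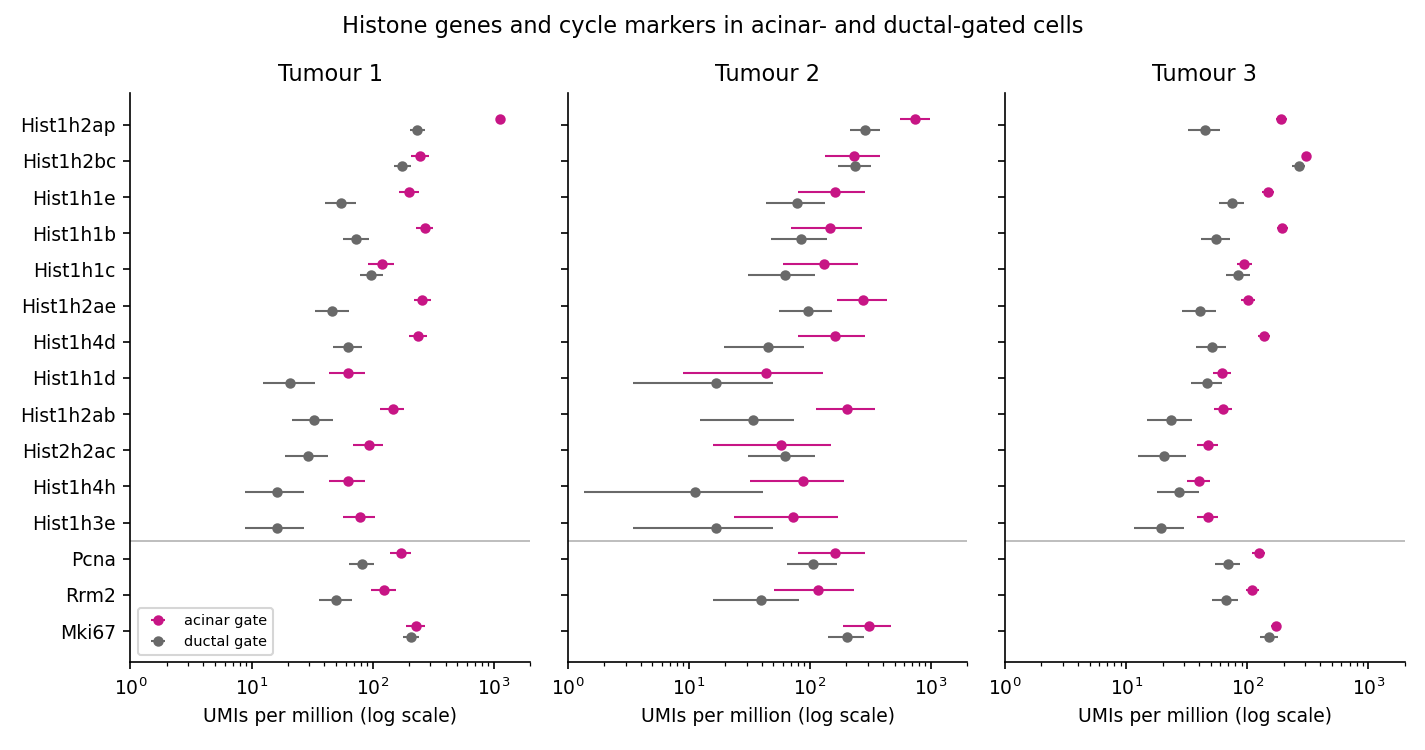
Level of the 12 highest histone genes and of Pcna, Rrm2 and Mki67 in acinar-gated (magenta) and ductal-gated (grey) cells of each tumour, in CPM (log axis), with exact Poisson 95% intervals that cover counting error only. Hist1h2bc and Hist1h1c have the closest pairs of points among the histone genes, and Hist1h2ap one of the widest.

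Of the H1 genes, 4 of 5 tested rose. Hist1h1b stood at 270, 145 and 196 CPM in the acinar gate and 73.3, 84.5 and 55.0 CPM in the ductal gate, with no overlap (log2 difference 1.70 ± 0.21 SE, edgeR adjusted p = 1.52e-08). Hist1h1e stood at 199, 160 and 148 CPM against 54.7, 78.8 and 74.4 CPM, also with no overlap (1.31 ± 0.23, edgeR adjusted p = 1.23e-05). Hist1h1d, at 62.3, 43.6 and 62.1 CPM against 21.0, 16.9 and 46.9 CPM, rose by 0.86 on the log2 scale, with overlapping groups. Hist1h1c was the H1 gene that did not pass, at 119, 131 and 94.5 CPM against 97.8, 61.9 and 84.5 CPM (0.27 ± 0.20, edgeR adjusted p = 0.360). All 5 H1 genes tested, Hist1h1c included, were higher in the acinar gate in 3 of 3 tumours. The promoters of 3 of them are printed for comparison, each ending at the RefSeq start of transcription, with capitals for matches to TATAAA and CCAAT on either strand.
Hist1h1b, chr13:21780626-21780875, minus strand: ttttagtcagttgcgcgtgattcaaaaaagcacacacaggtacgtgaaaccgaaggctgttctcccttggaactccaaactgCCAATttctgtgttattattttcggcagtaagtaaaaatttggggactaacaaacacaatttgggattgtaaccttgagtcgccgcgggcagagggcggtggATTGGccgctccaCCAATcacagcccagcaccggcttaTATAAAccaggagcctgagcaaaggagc
Hist1h1e, chr13:23622559-23622808, minus strand: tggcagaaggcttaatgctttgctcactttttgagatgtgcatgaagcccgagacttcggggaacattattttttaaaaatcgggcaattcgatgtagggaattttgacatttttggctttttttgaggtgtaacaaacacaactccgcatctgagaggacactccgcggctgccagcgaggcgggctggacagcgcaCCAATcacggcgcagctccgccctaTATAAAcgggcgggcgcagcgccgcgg
Hist1h1c, chr13:23738557-23738806, plus strand: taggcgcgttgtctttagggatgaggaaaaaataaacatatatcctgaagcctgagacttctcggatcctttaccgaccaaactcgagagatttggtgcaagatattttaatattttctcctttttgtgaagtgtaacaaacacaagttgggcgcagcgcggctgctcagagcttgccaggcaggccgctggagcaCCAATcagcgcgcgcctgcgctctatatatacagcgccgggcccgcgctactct

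All 3 H1 promoters hold CCAAT, while TATAAA matched in Hist1h1b and Hist1h1e and not in Hist1h1c. Across families, RefSeq promoters (GRCm38.p6, 250 bases before the start) were found for 62 histone genes. CCAAT, on either strand, occurred in 82.3% of them, in all 6 H1, 18 H2A and 16 H2B promoters, 8 of 10 H3 and 3 of 12 H4 promoters, against 34.1% of 26963 other promoters. TATAAA occurred in 46.8% against 12.8%. GGTCCTC, searched as a site of H4 promoters, occurred in 0 of 12 H4 promoters and in 0 of all 62, against 4.39% of the other promoters. The octamer ATTTGCAT, a site bound by Oct factors, occurred in 7 of 18 H2A and 7 of 16 H2B promoters and in no H1, H3 or H4 promoter, which is 22.6% of all 62 against 1.55% of the others. Windows of some neighbouring H2A and H2B genes overlap, so a site shared by such a pair, as in Hist1h2aa and Hist1h2ba, counts for both. A match describes letters only.

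Of the H2A genes, 4 of 7 tested rose, and they included the 2 largest log2 differences of any member. Hist1h2ap stood at 1124, 742 and 192 CPM in the acinar gate and 234, 287 and 44.8 CPM in the ductal gate. It was higher in the acinar gate of each tumour. Tumour 3 was low in both gates, so that its acinar value lay below the ductal values of tumours 1 and 2. The log2 difference was 1.90 ± 0.19 (SE, edgeR adjusted p = 5.51e-11). Hist1h2ab stood at 146, 204 and 63.0 CPM against 32.6, 33.8 and 23.4 CPM (1.86 ± 0.27, edgeR adjusted p = 4.78e-07). Hist1h2ae stood at 258, 276 and 102 CPM against 46.6, 95.7 and 40.7 CPM (1.77 ± 0.24, edgeR adjusted p = 8.82e-08). Neither of these overlapped between gates. Hist2h2ac stood at 92.5, 58.2 and 47.5 CPM against 29.1, 61.9 and 20.4 CPM (log2 difference 1.18), with tumour 2 about equal. The promoters of Hist1h2ap and Hist1h2ab are printed because the latter holds the octamer, as ATGCAAAT on the strand shown, and the former does not. For Hist1h2ap, the bases that fall inside its annotated transcript were left out, which leaves 218.
Hist1h2ap, chr13:21833508-21833725, minus strand: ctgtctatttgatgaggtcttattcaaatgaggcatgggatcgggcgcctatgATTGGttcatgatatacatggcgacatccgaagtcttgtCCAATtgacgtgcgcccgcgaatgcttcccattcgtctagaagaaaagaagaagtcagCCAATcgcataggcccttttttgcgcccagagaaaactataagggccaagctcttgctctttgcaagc
Hist1h2ab, chr13:23750838-23751087, plus strand: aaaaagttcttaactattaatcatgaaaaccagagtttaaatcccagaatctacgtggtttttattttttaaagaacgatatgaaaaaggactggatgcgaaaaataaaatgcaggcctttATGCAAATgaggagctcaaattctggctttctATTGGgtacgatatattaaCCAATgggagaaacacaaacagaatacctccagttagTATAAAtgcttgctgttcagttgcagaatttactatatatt

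Of the H2B genes, 1 of 4 tested rose. Hist1h2bc, the highest of them, stood at 245, 233 and 309 CPM in the acinar gate and 176, 236 and 267 CPM in the ductal gate, with overlapping groups. It did not pass the test (log2 difference 0.23 ± 0.18, edgeR adjusted p = 0.397), which does not show that the gates are equal. The gene that rose was Hist1h2bj, at 49.8, 87.3 and 36.2 CPM against 17.5, 16.9 and 20.4 CPM (log2 difference 1.18). All 3 H3 genes tested rose. Hist1h3e stood at 78.3, 72.7 and 47.0 CPM against 16.3, 16.9 and 19.4 CPM (1.72 ± 0.31), and Hist1h3c and Hist1h3f had log2 differences of 1.58 and 1.78. Of the H4 genes 2 of 6 tested rose. Hist1h4d stood at 238, 160 and 138 CPM against 62.9, 45.0 and 50.9 CPM (1.66 ± 0.22), and Hist1h4h at 62.3, 87.3 and 40.0 CPM against 16.3, 11.3 and 27.5 CPM (1.19 ± 0.34). Neither H4 gene overlapped between gates.

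The proteins and variants around these genes were read from lists. Of the histone chaperones and deposition factors, 7 of 16 tested rose and 0 fell, with a median log2 difference of 0.53. Nasp, a chaperone of H3 and H4, stood at 379, 407 and 207 CPM in the acinar gate against 122, 113 and 106 CPM (log2 difference 1.34 ± 0.19). Asf1a, which hands H3 and H4 to assembly factors, rose by 1.00. Of 16 tested genes for histone mRNA processing and histone gene transcription, only Srrt, a cap-associated RNA processing factor, rose (0.59 ± 0.22). Slbp itself stood at 60.5, 87.3 and 66.3 CPM against 38.4, 28.2 and 44.8 CPM and did not pass. The replication-independent histone genes, most of whose mRNAs carry ordinary poly(A) tails, divided. Cenpa, the centromeric H3 variant, rose by 0.90, and H1f0 by 0.53, and 3 of 9 rose in all. H2afj stood at 310, 349 and 262 CPM in the acinar gate against 530, 428 and 382 CPM and fell by 0.64. H3f3a, which encodes the H3.3 variant laid down outside replication, fell by 0.59, at 464, 480 and 693 CPM against 772, 653 and 912 CPM.

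Cycle genes moved with the histone genes. Of the S phase list, 25 of 37 tested rose and 0 fell (median log2 difference 0.93), with Cdt1 (1.58) and Dtl (1.44) the largest. Of the mitosis list, 15 of 24 rose (median 0.84), with Bub1b (1.83) and Ccnb1 (1.26) the largest, and Kif23 fell by 1.00. Pcna, the clamp of the replication fork, stood at 171, 160 and 124 CPM in the acinar gate against 81.5, 107 and 69.3 CPM (log2 difference 0.87 ± 0.20). Rrm2, a ribonucleotide reductase subunit, stood at 124, 116 and 110 CPM against 50.1, 39.4 and 66.2 CPM (1.03 ± 0.22). Mki67, a marker of all cycling phases, stood at 228, 305 and 173 CPM against 208, 203 and 152 CPM and did not pass (0.20 ± 0.17, edgeR adjusted p = 0.411). The larger histone differences, of 1.70 to 1.90, were above those of Pcna and Rrm2, but the difference between genes was not tested.

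Measures of RNA quality also differed between the gates. Malat1 stood at 1854, 1615 and 3328 CPM in the acinar gate against 3408, 5484 and 7083 CPM in the ductal gate, and at 22330 to 31137 CPM in free RNA. Genes over the ribosomal RNA locus (Gm42418, AY036118 and Gm26917) took 3.36%, 2.09% and 8.89% of acinar UMIs against 4.88%, 10.0% and 6.69% of ductal UMIs. Their part in the histone difference was not tested. With cells above 10% of such RNA left out, a setting chosen after the data were seen, 13 of the 14 genes remained called. The summed ratio was then 3.64, 2.07 and 2.31.

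The rarer gates held few cells. The squamous gate had enough cells only in tumour 3 (65 cells), where the 67 genes summed to 969 CPM with an exact Poisson 95% interval of 858 to 1089 CPM, against 1175 CPM in its ductal gate. No test was made. The gate of Msln, Tm4sf1 and F3 held 23 cells in tumour 1 and 22 in tumour 3, at 1700 and 802 CPM, above and below the ductal gate of the same tumour. The ductal gate of tumour 2 was also in the fit. Against the ductal gate, 1 of 25 histone genes, Hist1h1b, was called lower, where 3.04% of all genes were called lower and 3.73% higher. Hist1h1b had 0 UMIs in the Msln gate of tumour 1 and 2 UMIs in that of tumour 3 (15.7 CPM), so its fold is not given. Leaving out tumour 1 or tumour 3 left 0 genes called. Each omission leaves this gate with 1 sample, which is assumed to vary like the other groups. Cells passing several gates stood at 1056, 1583 and 1359 CPM in tumours 1, 2 and 3 (15, 7 and 103 cells), below the ductal gate in tumour 1 and above it in tumours 2 and 3.

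Cells carried histone UMIs unevenly. After each cell was thinned to 1000 UMIs, the median cell of the acinar gate had 3, 2.5 and 2 histone UMIs in tumours 1, 2 and 3, and the median ductal cell had 1 in each. Cells with 5 or more histone UMIs made up 38.9%, 27.8% and 14.7% of the acinar gate and 6.82%, 8.85% and 7.30% of the ductal gate. They made up 11.8%, 17.2% and 13.5% of cells with no gate. Before thinning, cells with 5 or more histone UMIs per 1000 made up 37.7%, 30.6% and 10.6% of the acinar gate and 4.29%, 7.96% and 3.65% of the ductal gate. The acinar share was above the ductal share in each tumour on both measures. The highest count in a thinned cell was 46, in a cell of tumour 1 with no gate. Over all cells the variance of the histone count was 5.40, 5.12 and 3.63 times its mean, above the value of 1 that sampling at an even level gives.

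**Figure D4:**
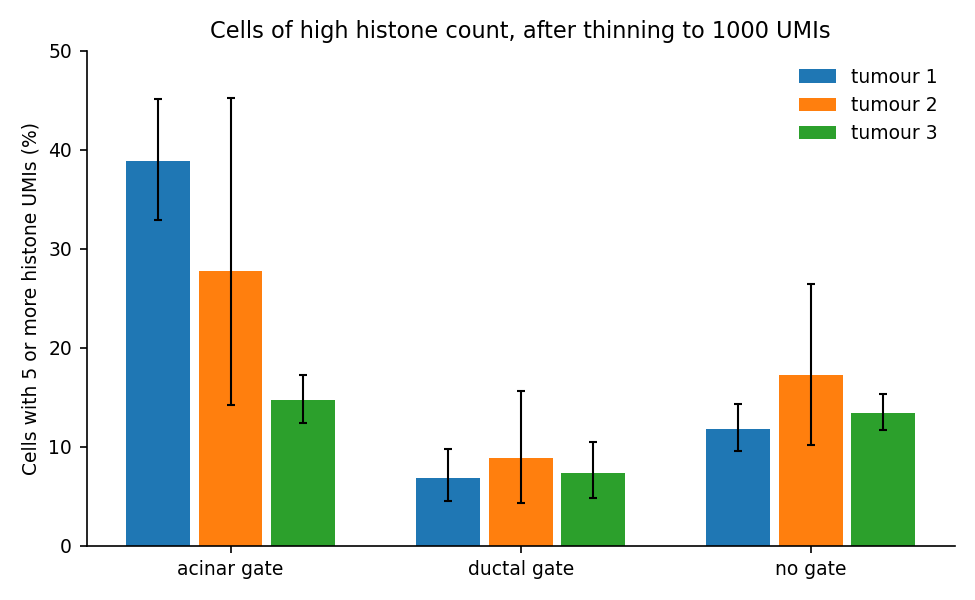
Share of cells with 5 or more histone UMIs after thinning to 1000 UMIs per cell, by gate and tumour, with exact Clopper-Pearson 95% intervals that cover counting error only. The acinar bars run from 14.7% to 38.9%, and the 3 ductal bars stay between 6.82% and 8.85%.

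Across cells within a tumour, most of the abundant histone genes were more closely related to the other histone genes than the cycle markers were. The values below are means over the 3 tumours of Spearman's rho over 1431, 253 and 2804 thinned cells, given as a description, since cells of a library share its free RNA. Hist1h2ap had a rho of 0.417 with the summed other members, Hist1h1b 0.304, Hist1h2ae 0.279 and Hist1h4d 0.265. Hist1h2bc had 0.0307 and Hist1h1c 0.103, and neither of them passed the test between gates. Against the summed members, Mki67 had 0.105, Pcna 0.0927 and Rrm2 0.0618. In sparse counts such low values carry little, and the markers were as weakly related to each other (Pcna with Rrm2 0.00558, Rrm2 with Mki67 0.0473). The 10 genes most like the summed members, of 1941 detected in 5% or more of cells in every tumour, were Ctrb1 (0.270), AC160336.1, Clps, Pnliprp1, Tuba1b, Cpa1, Ncl, Try4, Gm26917 and Hmgb2 (0.170). Among them 5 are digestive enzyme or cofactor genes of acinar cells, and Ctrb1 and Clps define the gate. Tmsb4x had the lowest value, -0.277.

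Cells with an S phase marker were compared with cells that lacked all 3 markers. After thinning, cells with Pcna or Rrm2 and no Mki67 numbered 165, 33 and 438, and cells with none of the markers 1075, 178 and 2071. The 67 genes summed to 2982, 3030 and 2708 CPM in the former and 2025, 1736 and 2154 CPM in the latter, with no overlap. These groups pool all gates, and the fit had no gate term. The acinar gate held more histone RNA and also more cells with a marker, so gate and marker are mixed here. Sums within each gate are given further below. Cells with Mki67 only (158, 34 and 230) stood at 2937, 2912 and 2596 CPM, close to the S marker cells. Cells with Mki67 and an S marker (33, 8 and 65) stood highest, at 3848, 5250 and 3508 CPM. Of 24 genes tested, 2 were higher in S marker cells than in marker-free cells and 0 lower (edgeR on thinned sums), where 0.141% of 3548 genes, 5 in number, were called higher. Both were H2A genes. Of the S phase list without Pcna and Rrm2, 0 of 21 tested genes were called here (median log2 difference 0.37). The same held, with 0 of 21, in the other comparisons between marker groups below.

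Hist1h2ap stood at 794, 758 and 183 CPM in S marker cells against 437, 365 and 113 CPM in marker-free cells (log2 difference 0.79 ± 0.14 SE, edgeR adjusted p = 6.96e-05). Within each tumour it was higher in S marker cells, and the groups overlap through tumour 3, which was low in both. Hist1h2ae stood at 255, 333 and 123 CPM against 104, 78.7 and 72.9 CPM, with no overlap (1.06 ± 0.20, edgeR adjusted p = 1.45e-04). Hist1h1b, at 206, 212 and 192 CPM against 120, 112 and 147 CPM, did not pass (0.53 ± 0.17, edgeR adjusted p = 0.159). Hist1h2bc stood at 255, 212 and 320 CPM against 202, 247 and 254 CPM and did not pass either. The median over the 24 genes was 0.34, against -0.00061 over all genes. Leaving out tumour 1 left 0 genes called, and fitting without the tumour block also left 0.

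Against marker-free cells, Mki67-only cells had 0 of 24 histone genes called in edgeR, with 5 at an unadjusted p under 0.05 (against 432 of all 3548 genes), where 0.817% of all genes were called higher and 1.27% lower. Of the mitosis list, 3 of 19 rose there, with Cenpe (log2 difference 1.39) and Cenpf (1.00) the largest. Cells with both kinds of marker had 2 of 24 called higher, where 0.366% of all genes were called higher and 1.13% lower. Hist1h1b stood at 424 and 308 CPM in tumours 1 and 3, the only tumours with 20 or more such cells, against 120 and 147 CPM (1.18 ± 0.30, edgeR adjusted p = 0.0168). Hist1h2ab stood at 212 and 185 CPM against 78.1 and 41.0 CPM (1.65 ± 0.43, edgeR adjusted p = 0.0198). Leaving out tumour 1 or tumour 3 left 0 called, again with 1 sample in that group. The direct comparison of S marker cells with Mki67-only cells called 0 of 24 histone genes in edgeR, with 0 at an unadjusted p under 0.05 and 0 in DESeq2, where 0.0282% of all genes were called higher and 0.225% lower. Hist1h2ap had the smallest p there (log2 difference 0.33 ± 0.17). The test did not separate histone levels of the S marker and Mki67-only groups, which does not show them to be equal.

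Markers were more frequent in the acinar gate, so the gates were compared again within marker status. A UMI of Pcna, Rrm2 or Mki67 was present after thinning in 33.9%, 36.1% and 30.3% of acinar cells and 18.9%, 26.5% and 16.3% of ductal cells. Before thinning the shares were 50.2%, 50.0% and 45.6% against 32.8%, 35.4% and 30.1%. Among cells with no marker, the 67 genes summed to 4329, 3652 and 2322 CPM in the acinar gate and 1090, 1060 and 1523 CPM in the ductal gate. Among cells with a marker they summed to 4736, 3538 and 2783 CPM and 2307, 2767 and 1724 CPM. The acinar value was the higher in each tumour in both strata. Acinar cells without a marker also stood above ductal cells with one in each tumour.

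**Figure D5:**
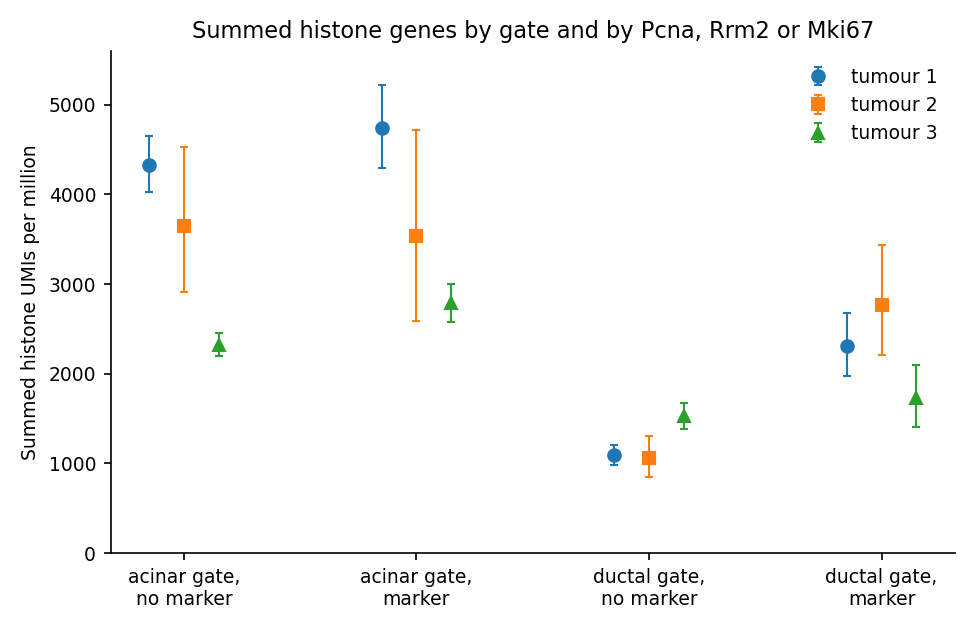
Summed level of the 67 histone genes in acinar- and ductal-gated cells without and with a UMI of Pcna, Rrm2 or Mki67 after thinning, in CPM, with exact Poisson 95% intervals that cover counting error only. Ductal cells without a marker sit lowest in every tumour, and both acinar groups sit above both ductal groups of the same tumour.

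Among cells with no marker, 10 of 15 histone genes tested were higher in the acinar gate and 0 lower, where 10.2% of all genes were called higher. Their median log2 difference was 1.44, against 0.037 over all 2932 genes tested. Hist1h2ap stood at 1265, 957 and 195 CPM against 237, 181 and 60.4 CPM (2.12 ± 0.20 SE, edgeR adjusted p = 1.89e-11). Hist1h4d followed with a log2 difference of 2.08, Hist1h1b with 1.96, Hist1h2ae with 1.96 and Hist1h3c with 1.70. Hist1h1b stood at 294, 304 and 212 CPM against 65.4, 24.1 and 70.5 CPM, with no overlap. Hist1h2bc (0.16 ± 0.21) and Hist1h1c (0.45 ± 0.29) did not pass here either. In the same cells Nasp (1.62) and Nap1l1 (0.88) rose among 4 of 10 chaperones, Clspn (2.22) and Dut (1.52) among 5 of 17 S phase genes, and Aurka (1.85) and Top2a (1.64) among 8 of 16 mitosis genes. Transcripts of other cycle genes were thus counted in cells with no UMI of the 3 markers after thinning. Some of these cells held such a UMI before thinning, as the higher unthinned shares above show. Leaving out tumour 1 left 4 histone genes called.

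Among cells with a marker, 2 of 15 were higher and 0 lower, where 2.59% of all genes were called higher and 4.91% lower. Tumour 2 had 13 such acinar cells, too few for a sum, so the CPM values given are of tumours 1 and 3. Its 30 ductal cells with a marker stayed in the fit. The log2 differences and p-values therefore rest on more than the values printed. Hist1h2ap stood at 1276 and 217 CPM against 587 and 103 CPM (0.80 ± 0.25, edgeR adjusted p = 0.0366). Hist1h1b stood at 402 and 311 CPM against 187 and 103 CPM (1.05 ± 0.33, edgeR adjusted p = 0.0409). Leaving out tumour 1 left 0 called and leaving out tumour 3 left 1, in fits where 1 acinar sample with a marker remained and the other groups supplied the spread. The gate difference was smaller with a marker than without for 12 of the 15 genes. The test of that difference itself called 0 of 15 in edgeR, with 3 at an unadjusted p under 0.05 and 0 in DESeq2, and 0 of all 2932 genes (0%), of which 102 had an unadjusted p under 0.05. Hist1h2ap had the largest gap, at -1.33 ± 0.32, which did not pass (edgeR adjusted p = 0.550).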

How the data were processed

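Per the file headers, the deposited tables hold whole-number UMI counts that were not normalized, written by Cell Ranger 3.0.2. The submitters' processing notes name Cell Ranger 3, Seurat 3.1 and build mm10, and the authors' gene annotation was not stated there. Each table lists all 6794880 possible barcodes, so the cell filters were applied here. The labels name a Version 1 and a Version 3 kit, and which applied was not settled. Doublet scores (scrublet in scanpy 1.11.5) marked 4, 3 and 0 cells, too few to have worked, and none was removed.

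UMIs were summed per tumour and cell group with 20 or more cells and tested with edgeR 4.0.16 (R 4.3.3; filterByExpr, TMM, glmQLFit and glmQLFTest, Benjamini-Hochberg adjustment over all genes). The tumour was a block, since groups of a tumour share an animal. The gate fit used 13 sums of 55295 to 3857798 UMIs, the marker fit 11 and the gate by marker fit 20, with 5, 5 and 9 residual degrees of freedom. Gate and marker genes were left out of the counts of calls. For markers and counts per cell, each cell was thinned to 1000 UMIs. CPM is UMIs scaled to 1000000 UMIs of the group, and ± is 1 SE unless SD is written. The fits were tested on simulated data. Changes of 2-fold were recovered for 67.4% of changed genes between the gates and 68.5% between S marker and marker-free cells. Between the gates within marker cells 36.7% were recovered. For 4-fold changes the shares were 100%, 100% and 92%, with 9, 4 and 3 false calls. Recovery within marker-free cells was not measured. DESeq2 1.42.0 was an alternative.

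Genes named are the 12 highest members, the highest of each family, the 5 called members of largest size per test, Pcna, Rrm2 and Mki67, and the 2 called genes of largest size per direction and list. Hist1h2ao, Hist1h1t, the genes without UMIs, Slbp and members named beside a test they did not pass were added after their values were seen. The members, gates and lists were chosen with earlier results of these data known. Intervals cover counting error only. Sequences come from RefSeq (GRCm38.p6) and GENCODE M21 tables of the same build.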

Additional observations from a re-analysis of the deposited data

How the results depend on the processing

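The histone calls depended on which tumours and cells entered. For the summed ratio between gates, and for single named genes with an adjusted p, no direction reversed in an alternative run. Direction was not compared for the other members. Between the acinar and ductal gates (14 genes higher), 25 were called without the filter on low counts, 22 with gates at 1.5 times free RNA, 23 with 50 or more cells per sum and 22 with no home-library filter. DESeq2 called 12 (without Hist1h1a and Hist1h1d), thinning to 1000 UMIs 10 (without Hist1h1a, Hist1h2bj, Hist1h3f and Hist2h2ac), and the higher minimum of UMIs per cell 14, of which 11 were shared. Leaving out each tumour in turn gave 8 to 24. The 8 left without tumour 1 had lost Hist1h1a, Hist1h1d, Hist1h2bj, Hist1h3f, Hist1h4h and Hist2h2ac. The summed log2 ratio of 1.24 (mean of 3 tumours) ranged from 0.988 to 1.44 over these omissions and was 1.03 with no home-library filter. For S marker cells (2 higher), DESeq2 gave 1 (it left most members without an adjusted p), the fit with no replicate block 0, another thinning seed 1, raw UMIs 0, and omissions 0 to 2. For Mki67-only cells (0), no home-library filter gave 3 and another seed 1, and DESeq2 gave no adjusted p for the members. For cells with both markers (2), DESeq2, again without adjusted p for most members, gave 1, no filter on low counts 0, no replicate block 0, no home-library filter 0, another seed 0, leaving out cells rich in ribosomal locus RNA 1, and omissions 0 to 2. Within marker cells (2), DESeq2, no replicate block and no home-library filter each gave 0, and omissions 0 to 2. Within marker-free cells (10), omissions gave 4 to 7. For the Msln gate (1 lower), DESeq2, at most 10% mitochondrial UMIs, thinning and leaving out cells rich in ribosomal locus RNA each gave 0. Gates at 1.5 times free RNA gave 3, and gates at 3 times, assigned cells and no home-library filter each gave 2, while omissions gave 0 to 2. The cause was not tested. The fit with no replicate block called 12 between the gates, also without Hist1h1a and Hist1h1d. Over single named genes, 283 alternative values kept their side of the threshold and 49 lost it. For the Msln gate, the higher minimum of UMIs and 50 cells per sum gave no value. Alternatives on ribosomal locus RNA were chosen after the data were seen. Depth limits all single-gene statements: the 36 acinar cells of tumour 2 held 202 histone UMIs.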
